A study of Mus musculus with 20 samples.

Results

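The 10 genes described here encode the Pim kinases (Pim1, Pim2 and Pim3), the transcription factor Myc, the atypical IkappaB protein Bcl3, the D-type cyclins Ccnd2 and Ccnd3, their kinase Cdk6, and the cyclin-dependent kinase inhibitors Cdkn1a (p21) and Cdkn1b (p27). They are listed by name among the 23992 gene symbols of the deposited tables, with no threshold on their values although earlier results of these data were known, and all 10 passed the filter on low counts in both experiments. The libraries came from splenic CD8+ T cells of wild-type C57BL/6J mice aged 6 to 8 weeks, purified by negative magnetic selection. All groups, controls included, had first been activated with anti-CD3 and anti-CD28 and then rested overnight. For the next 24 hours they received murine IL-21 (mIL-21), 21h10 (a computationally designed mimic of IL-21) or no cytokine (unstimulated). Experiment 1 used 100 pM and 1 nM of each cytokine and experiment 2 used 10 nM and 100 nM, each beside unstimulated cells of its own, with duplicate libraries in each of the 10 groups (n = 2, 20 libraries). The sources used here do not say whether duplicates came from separate mice or cultures, so p-values measure only the spread between these libraries. Since each experiment had its own pair of doses, doses are compared only within an experiment.

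IL-21 binds a receptor that signals through Janus kinases and STAT transcription factors, chiefly STAT3. Pim kinases are serine/threonine kinases that are active as soon as they are made, so that their output is set largely by how much is transcribed and translated, and they are classic targets of cytokine-activated STATs that promote T cell survival and growth. Myc drives ribosome production, metabolism and entry into the cell cycle of activated T cells. D-type cyclins pair with Cdk4 or Cdk6 and phosphorylate the retinoblastoma protein, which releases E2F factors and lets a cell pass from G1 into S phase. The proteins p21 and p27 bind cyclin-Cdk complexes and restrain this step, and Bcl3 is a nuclear partner of the NF-kappaB subunits p50 and p52 that can activate transcription.

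Reads counted on genes came to 36824740 to 94070730 per library in experiment 1 and 27072917 to 43300094 in experiment 2, and duplicates varied with a biological coefficient of variation of 4.32% and 8.80%. Smaller differences could therefore be detected in experiment 1. The CD8 T cell markers Cd3d, Cd3e, Cd8a, Cd8b1 and Lck were present in every library, at a summed 799.7 to 1237 RPKM. The summed level of 4 myeloid markers was 0.184 to 0.268 RPKM in unstimulated and 2.84 to 14.0 in treated libraries of experiment 1, and 0.644 to 0.806 and 6.31 to 16.6 in experiment 2. Of these, Itgam, which activated CD8+ T cells can also express, ranged from 0.119 to 16.6 RPKM over all libraries, while Lyz2, Csf1r and Cd14 reached at most 0.233, 0.0128 and 0.0726 RPKM and had 0 reads in 13, 13 and 11 libraries. B cell markers summed to 2.77 to 10.5 RPKM, nearly all from Cd79b. NK cell markers stayed at or under 0.461 RPKM and Cd4 with Foxp3 at or under 1.10.

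Of the 10 genes, 8 had a promoter entry in the RefSeq table of mouse assembly GRCm38.p6, and the 250 bases before each annotated start were searched on both strands for 4 motifs. These were the STAT motif TTCNNNGAA, the E-box CACGTG bound by Myc and Max, the kappaB motif, GGG and TTCC with any 3 bases between them (GGAA and CCC on the other strand), and the E2F motif TTTNGCGC (GCGCNAAA on the other strand). The promoters of Pim1 and Bcl3 are shown because Bcl3 rose most of the 10 genes in every treated group and Pim1 most of the kinases, and those of Cdk6 and Pim3 because each holds a match, which is printed in capitals. Bases that lie inside the GENCODE transcript were left off. The windows are chr17:29490535-29490752 (plus strand) for Pim1, chr7:19822771-19823005 (minus strand) for Bcl3, chr15:88861944-88862185 (plus strand) for Pim3 and chr5:3343643-3343892 (plus strand) for Cdk6.
Pim1: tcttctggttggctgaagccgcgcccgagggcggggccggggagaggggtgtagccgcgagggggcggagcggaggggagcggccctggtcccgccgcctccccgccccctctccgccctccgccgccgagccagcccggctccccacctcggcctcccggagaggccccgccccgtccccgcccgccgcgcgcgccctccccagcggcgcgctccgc
Bcl3: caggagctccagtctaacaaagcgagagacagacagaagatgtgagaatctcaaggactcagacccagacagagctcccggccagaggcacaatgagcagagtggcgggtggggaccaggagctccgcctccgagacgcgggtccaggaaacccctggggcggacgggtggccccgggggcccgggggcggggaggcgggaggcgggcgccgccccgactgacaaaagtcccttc
Pim3: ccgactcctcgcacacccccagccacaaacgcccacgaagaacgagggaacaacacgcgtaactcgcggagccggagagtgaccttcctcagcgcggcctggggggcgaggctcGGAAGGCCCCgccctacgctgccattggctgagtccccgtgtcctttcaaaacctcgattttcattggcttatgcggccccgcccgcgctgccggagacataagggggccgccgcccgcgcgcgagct
Cdk6: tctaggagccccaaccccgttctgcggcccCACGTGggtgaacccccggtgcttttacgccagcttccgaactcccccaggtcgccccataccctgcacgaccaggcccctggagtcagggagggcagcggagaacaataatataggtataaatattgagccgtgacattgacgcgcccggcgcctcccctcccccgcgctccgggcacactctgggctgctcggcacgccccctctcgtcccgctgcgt
Distances are counted from the annotated RefSeq start and not from the end of the stretch shown. The Cdk6 promoter held CACGTG from 220 to 215 bases upstream of its start. That of Pim3 held GGAAGGCCCC, a kappaB match on the other strand that ends 127 bases upstream. A further annotated start inside Pim1 had CACGTG from 58 to 53 bases upstream. No other match was found in these windows, and the matches shown did not overlap one another. Among 32851 mouse promoters of the same length, 7.02% held the STAT motif, 6.02% the E-box, 4.65% the kappaB motif and 1.13% the E2F motif. Over the full 250 bases, those left off included, the Pim1 window was rich in G and C. The share was 82.4%, against 66.0% to 68.0% in the windows of Cdk6, Bcl3 and Pim3. A match is a description of the letters and not evidence of binding.

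Both cytokines changed every one of these genes in experiment 1. Expression is given as CPM, a gene's reads relative to the TMM-scaled library size, and differences as log2 fold changes with their standard error (SE), tested with edgeR's quasi-likelihood test and Benjamini-Hochberg adjustment over all genes tested, with an adjusted p under 0.05 as the threshold. Against unstimulated cells, 10 of the 10 genes passed in each of 4 treated groups, with 7 higher and 3 lower at 100 pM of mIL-21 and 8 higher and 2 lower at 1 nM of mIL-21 and at either dose of 21h10. The background was wide, since at 100 pM and 1 nM of mIL-21 and at 100 pM and 1 nM of 21h10 it was 77.7%, 80.1%, 81.6% and 80.3% of the 13974 genes tested that passed. The count that passed was thus not far above the share of all genes, and the sizes carry more of the description. The median log2 fold change of the 10 genes was 0.35, 1.02, 0.85 and 1.55 in that order, with a median over all genes between -0.04 and 0. In experiment 2, 7 of the 10 passed at 10 nM of mIL-21 (5 higher, 2 lower) and 6 at 100 nM (5 higher, 1 lower), beside 46.2% of the 13772 genes tested at either dose. For 21h10 it was 6 at 10 nM (5 higher, 1 lower) and 8 at 100 nM (7 higher, 1 lower), beside 50.1% and 50.8%. Elsewhere, where 4 values of an experiment are given together, they are in the order mIL-21 and 21h10 at the lower dose, then mIL-21 and 21h10 at the higher dose. Medians in experiment 2 were 0.52 and 0.50 for mIL-21 and 0.47 and 0.78 for 21h10. In RNA from bulk cultures, fewer cells of a type and less RNA per cell cannot be told apart.

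**Figure D1:**
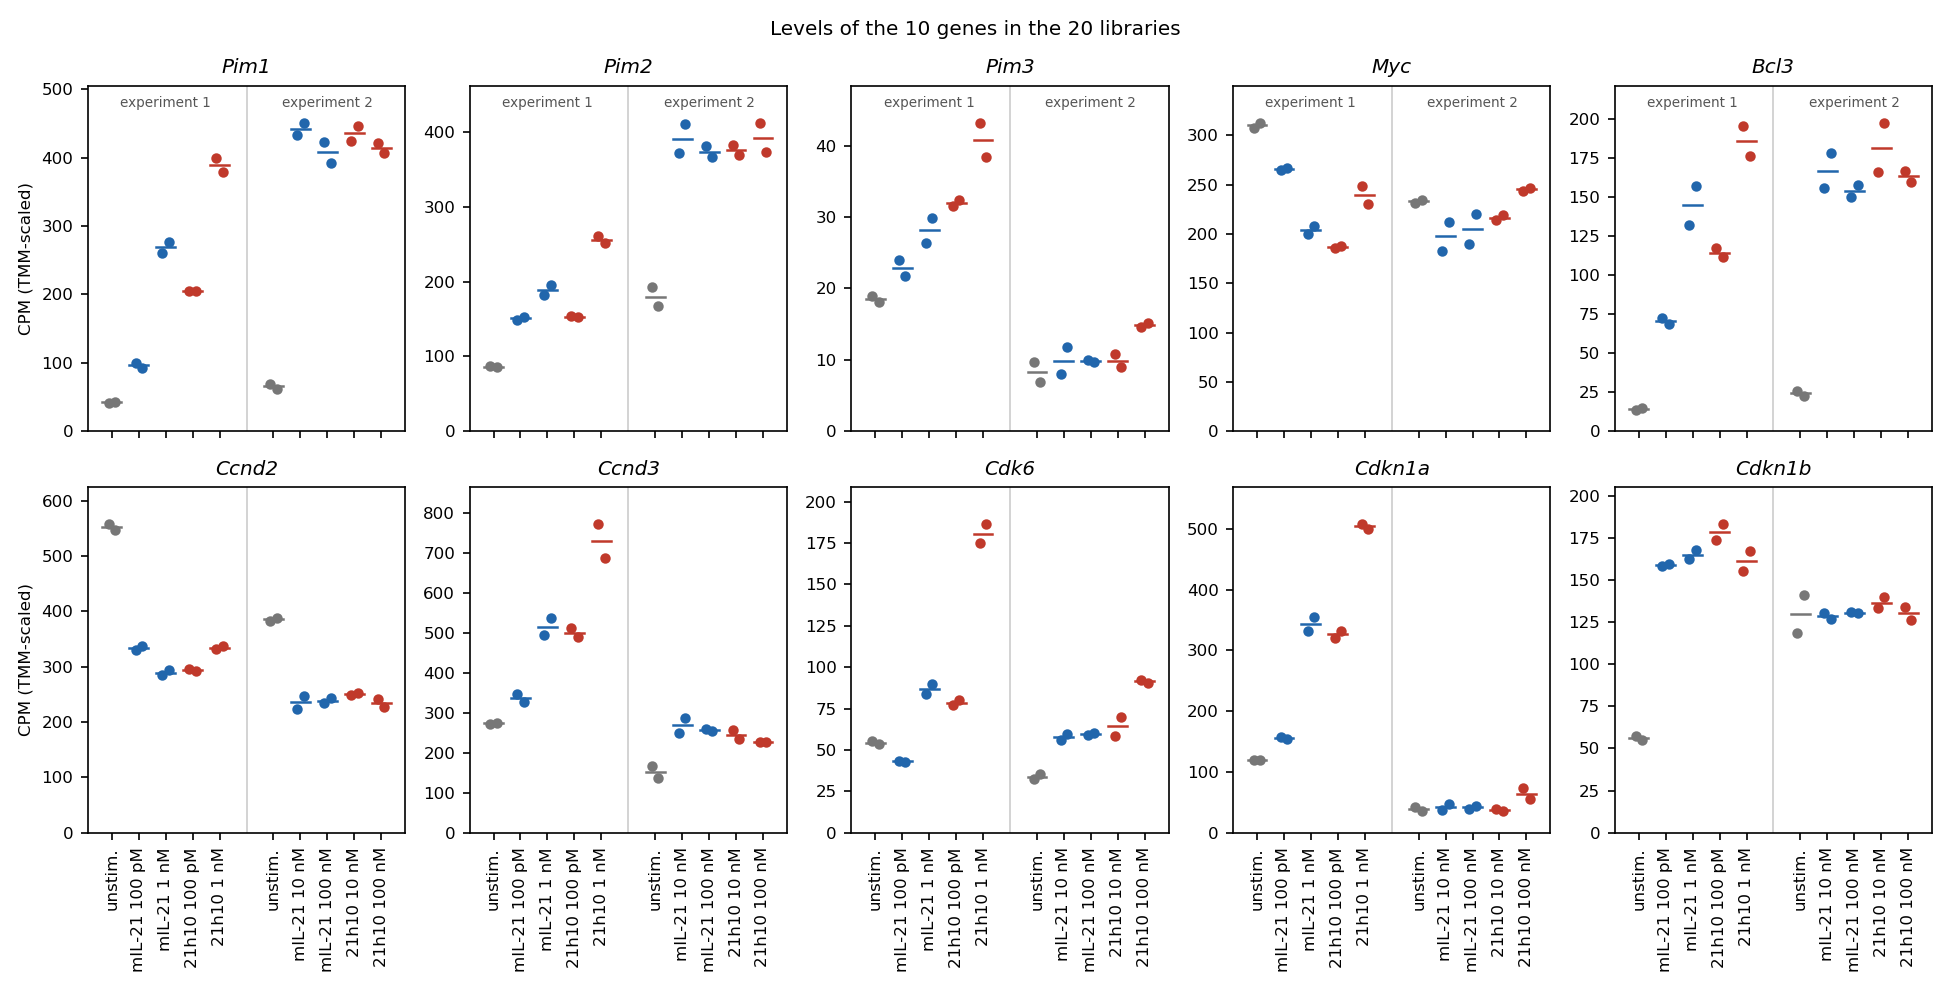
CPM of each of the 10 genes in every library, 1 panel per gene, with the 5 groups of each experiment along the x axis and 1 point per library. Pim1 and Bcl3 were higher in every treated library than in every unstimulated library of the same experiment, Ccnd2 was lower, and Cdkn1b was higher in treated libraries of experiment 1 but overlapped with unstimulated ones in experiment 2.

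Pim1 (NM_008842, chromosome 17 from 29490753 to 29496112 in GRCm38) was the strongest riser of the 3 kinases. Its level was 41.65 and 42.9 CPM in the duplicates of unstimulated cells of experiment 1, 99.5 and 92.8 at 100 pM and 259.9 and 277 at 1 nM of mIL-21, and 204.7 and 205.3 at 100 pM and 399 and 378.5 at 1 nM of 21h10. The 5 groups did not overlap, and the order of the treated groups followed dose and, within a dose, 21h10 lay above mIL-21. The log2 fold change against unstimulated cells ran from 1.19 (SE 0.0531, adjusted p = 1.02e-12) with mIL-21 at 100 pM to 3.20 (SE 0.0546, adjusted p = 2.17e-18) with 21h10 at 1 nM, a 9.20-fold rise. Unstimulated cells of experiment 2 had 69.5 and 62.2 CPM, with 433 and 450.5 at 10 nM and 423 and 393 at 100 nM of mIL-21, and 424 and 446 at 10 nM and 421 and 406.5 at 100 nM of 21h10. All 8 treated libraries lay together, far above the unstimulated ones, with log2 fold changes of 2.63 to 2.75. An antisense gene, Gm26885, covers 17.3% of the exonic bases of the GENCODE transcript of Pim1. That transcript has 2698 bases, and the RefSeq transcript counted has 1753. Whether the counting used strand is not given in the sources used here. Positions printed beside the RefSeq names of the 10 genes are those of the matched GENCODE transcripts, and can differ from the transcripts counted. The GENCODE transcripts of Pim2 and Cdkn1a have 1113 and 922 bases, against 2041 and 1936 in those counted.

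Pim2 (NM_138606, chromosome X from 7878319 to 7882517), the most abundant of the 3 kinases in unstimulated cells, rose less. Its level was 86.9 and 85.3 CPM in unstimulated cells, 149 and 153 at 100 pM and 182 and 195.1 at 1 nM of mIL-21, and 154 and 152 at 100 pM and 261 and 251 at 1 nM of 21h10. The cytokines overlapped at 100 pM and separated at 1 nM. Against unstimulated cells Pim2 rose by 0.81 and 1.13 with mIL-21 and by 0.83 and 1.57 with 21h10 (SE 0.0477, adjusted p = 3.18e-15 for the last). In experiment 2 Pim2 was 192.2 and 167 CPM in unstimulated cells and between 367 and 412 in the 8 treated libraries, with log2 fold changes of 1.06 to 1.13. Pim3 (NM_145478, chromosome 15 from 88862186 to 88865726) was the least abundant, at 19.0 and 18.04 CPM in unstimulated cells, 24.0 and 21.7 at 100 pM and 26.4 and 29.8 at 1 nM of mIL-21, and 31.5 and 32.3 at 100 pM and 43.2 and 38.4 at 1 nM of 21h10. It rose in all 4 groups, by 0.30, 0.79, 0.60 and 1.13 on the log2 scale, although the first no longer passed without replicate 1 of mIL-21 at 100 pM (0.23, adjusted p = 0.053). In experiment 2 Pim3 was 9.70 and 6.93 CPM in unstimulated cells, 8.06 and 11.75 at 10 nM and 9.99 and 9.71 at 100 nM of mIL-21, and 10.8 and 8.96 at 10 nM and 14.6 and 15.1 at 100 nM of 21h10. Only 21h10 at 100 nM passed, at 0.83 (SE 0.189, adjusted p = 0.00183), and the log2 fold changes of the other 3 groups were 0.24 to 0.25, with 95% confidence intervals of -0.15 to 0.66, -0.16 to 0.65 and -0.16 to 0.65.

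Per length of transcript, the balance of the kinases moved from Pim2 to Pim1. Of the summed RPKM of the 3 genes in experiment 1, Pim1 made up 32.6% and Pim2 57.0% in unstimulated cells (mean of duplicates), 39.6% and 53.5% at 100 pM and 59.5% and 35.9% at 1 nM of mIL-21, and 57.0% and 36.6% at 100 pM and 60.9% and 34.5% at 1 nM of 21h10. In experiment 2 Pim1 went from 29.1% to between 54.4% and 56.8%. Pim3 made up 10.3% in unstimulated cells of experiment 1 and at most 6.83% in its treated groups, so that its share was lower although its level rose.

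Myc (NM_001177352, chromosome 15 from 61985391 to 61990350) fell in all 4 treated groups of experiment 1, and the depth of the fall did not follow dose. Its level was 308 and 312 CPM in unstimulated cells, 265 and 267 at 100 pM and 200.1 and 208.4 at 1 nM of mIL-21, and 185 and 188 at 100 pM and 248 and 231 at 1 nM of 21h10. The lowest of the 5 groups was 21h10 at 100 pM, and no groups overlapped. With mIL-21 the log2 fold change was -0.22 (SE 0.0464, adjusted p = 3.10e-04) at 100 pM and -0.60 at 1 nM. With 21h10 it was -0.73 (SE 0.0466, adjusted p = 9.92e-11) and then -0.37. For experiment 2 the levels were 231 and 235 CPM in unstimulated cells, 183 and 212 at 10 nM and 190.1 and 220.3 at 100 nM of mIL-21, and 214 and 219 at 10 nM and 243.5 and 247 at 100 nM of 21h10. In edgeR only mIL-21 at 10 nM passed, at -0.24 (SE 0.0894, adjusted p = 0.0392), and it did not pass when those groups were fitted alone or when any of 7 single libraries was left out (-0.14, adjusted p = 0.338, without its own replicate 1). In limma on log2(RPKM + 1), Myc also passed with 21h10 at 10 nM (-0.37, adjusted p = 0.00896) and with mIL-21 at 100 nM (-0.40, adjusted p = 0.00657). The last also passed in edgeR without TMM scaling (-0.28, adjusted p = 0.021). In these fits, in that order, the median of all genes was negative too, at -0.25, -0.20 and -0.11. For the other 3 groups the intervals in edgeR were -0.37 to 0.007 for mIL-21 at 100 nM, and -0.30 to 0.085 at 10 nM and -0.12 to 0.26 at 100 nM for 21h10.

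Most of the listed genes known as Myc targets were lower with cytokine. The counts of this and the other lists stand beside the 77.7% to 81.6% of all genes that passed in experiment 1 and the 46.2% to 50.8% in experiment 2. Of 13 Myc targets, 12 fell and 1 rose in the first 3 groups of experiment 1, with median log2 fold changes of -1.84, -2.06 and -2.07. With 21h10 at 1 nM, 10 fell and 1 rose, with a median of -1.90, while Odc1 (log2 fold change 0.043), the rate-limiting enzyme of polyamine synthesis, and the translation factor Eif4e (0.019) did not pass. Tfrc, the transferrin receptor, went from 1019 and 988 CPM in unstimulated cells to 131.9 and 138.9 with 21h10 at 1 nM, a log2 fold change of -2.89. Polr1b, a subunit of RNA polymerase I, fell by 2.69 on the log2 scale in the same comparison. The gene that rose was Ldha, lactate dehydrogenase A, by 0.14 to 0.25. These medians lay below the log2 fold change of Myc itself, which was no lower than -0.73. In experiment 2 the targets moved less, with 10, 10, 10 and 8 of 13 lower and 0, 0, 0 and 1 higher. Medians there were -0.56, -0.70, -0.49 and -0.44. Ldha was lower with cytokine in experiment 2, from a mean of 1933 CPM in unstimulated cells to between 1189 and 1395 in treated groups.

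Among 13 partners and antagonists of Myc, 9, 10, 10 and 8 rose and 3, 2, 2 and 3 fell in the 4 treated groups of experiment 1, with medians of 0.58, 0.49, 0.47 and 0.39. The largest rise with 21h10 at 1 nM was that of Mxd1, which encodes a repressor that competes with Myc for Max. It went from 14.3 and 13.1 CPM in unstimulated cells to 56.2 and 52.8 at 100 pM and 140.2 and 153 at 1 nM of mIL-21, and 107 and 103.5 at 100 pM and 252 and 242 at 1 nM of 21h10. Mxd1 thus moved in the same order of groups as Pim1, and its log2 fold change reached 4.17 (SE 0.0636, adjusted p = 6.32e-19), with 2.62 to 2.87 in experiment 2. Mxd4, another repressor that pairs with Max, rose more than Mxd1 with mIL-21 at 100 pM (2.32 against 1.99), rose by 0.42 with 21h10 at 1 nM, and fell in experiment 2, with log2 fold changes of -2.57 to -2.26. Mycn, a second Myc gene, rose by 2.91 with 21h10 at 1 nM from a low level, 0.400 and 0.400 CPM to 2.96 and 3.08 CPM. Mga, which pairs with Max and represses E-box genes, fell by 0.50 on the log2 scale and Mycl by 0.40. In experiment 2, 5, 5, 5 and 4 of the 13 rose and 3, 2, 2 and 3 fell, with medians of 0.03, 0.30, 0.05 and 0.02.

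Bcl3 (NM_033601, minus strand of chromosome 7 from 19808462 to 19822770) had the largest fold change of the 10 genes in all 8 treated groups, in experiment 2 by little over Pim1. Its level was 13.5 and 14.99 CPM in unstimulated cells, 72.4 and 68.7 at 100 pM and 132.4 and 157 at 1 nM of mIL-21, and 117 and 111 at 100 pM and 195.4 and 176 at 1 nM of 21h10. The 5 groups were again apart and in the same order as for Pim1. The log2 fold changes were 2.31, 3.01, 3.35 and 3.71 (SE 0.0830, adjusted p = 5.88e-17 for the last), up to a 13.1-fold rise. Bcl3 went from 26.1 and 22.4 CPM in unstimulated cells of experiment 2 to between 150.2 and 197.4 in the 8 treated libraries, with log2 fold changes of 2.67 to 2.90.

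Other NF-kappaB and IkappaB genes did not move one way. Of 10 on the list, 4, 5, 5 and 5 rose and 4, 2, 3 and 4 fell in experiment 1, with medians of 0.06, 0.12, 0.03 and 0.08. Relb, a subunit of the alternative NF-kappaB pathway, rose from 17.2 and 17.8 CPM to 66.6 and 60.6 with 21h10 at 1 nM, a log2 fold change of 1.86. Nfkbiz, another nuclear IkappaB, rose by 1.67, whereas Nfkbid, also of this family, fell by 2.06 on the log2 scale. In experiment 2, 5, 4, 4 and 3 of the 10 rose and 2, 3, 2 and 3 fell, beside 46.2% to 50.8% of all genes that passed. There Nfkbiz was again higher with cytokine, from a mean of 10.6 CPM to between 30.7 and 72.9. Nfkbid did not fall there (6.665 CPM in unstimulated cells, 7.79 to 10.5 in treated groups), and Relb moved less (11.5 CPM, and 11.2 to 16.4).

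The D-type cyclins moved in opposite directions. Ccnd2 (NM_009829, minus strand of chromosome 6 from 127125162 to 127151060) stood at 557 and 548 CPM in unstimulated cells, 329.7 and 337 at 100 pM and 285 and 293.5 at 1 nM of mIL-21, and 296 and 292 at 100 pM and 331 and 337 at 1 nM of 21h10. Every treated library lay below both unstimulated ones, and the treated groups lay close to one another. The log2 fold changes were -0.73, -0.91, -0.93 and -0.73 (SE 0.0431, adjusted p = 3.59e-11 for the last). It went from 383 and 387 CPM in unstimulated cells of experiment 2 to between 224 and 252.5 in treated libraries, with log2 fold changes of -0.72 to -0.62. Over all 8 treated groups the log2 fold change of Ccnd2 thus lay between -0.93 and -0.62. An antisense gene, Gm43126, covers 5.88% of the exonic bases of its GENCODE transcript.

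Ccnd3 (NM_001081636, chromosome 17 from 47505051 to 47599683) rose. Its level was 272 and 274 CPM in unstimulated cells, 347 and 326 at 100 pM and 493.5 and 537 at 1 nM of mIL-21, and 512 and 489 at 100 pM and 771 and 686 at 1 nM of 21h10. All treated libraries were above the unstimulated ones, and mIL-21 at 1 nM overlapped 21h10 at 100 pM. On the log2 scale it rose by 0.30, 0.87, 0.92 and 1.42 (SE 0.0592, adjusted p = 2.60e-13 for the last). In experiment 2 it was 165.5 and 136.9 CPM in unstimulated cells and 227 to 286 in treated libraries, with log2 fold changes from 0.59 to 0.82, the lowest of which (21h10 at 100 nM) did not pass in limma on log2(RPKM + 1) (0.29, adjusted p = 0.0693). The counting limits matter for this gene, since the antisense gene Bysl covers 16.7% of its exonic bases and a processed copy, Ccnd3-ps, resembles 41.6% of the transcript at up to 96.2% identity. Bysl moved the other way in experiment 1, with log2 fold changes of -2.42 to -2.23. In experiment 2 its values were positive like those of Ccnd3, at 0.11 to 0.42, and passed with 21h10 at 10 nM alone (adjusted p = 0.0042 from edgeR). Per length of transcript, Ccnd3 was 1.35 times Ccnd2 in unstimulated cells of experiment 1 (RPKM ratio, SD 0.026, n = 2), 2.75 times at 100 pM and 4.85 times at 1 nM of mIL-21, and 4.64 and 5.95 times at the same doses of 21h10. In experiment 2 the ratio went from 1.07 (SD 0.152) to between 2.65 and 3.10.

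Cdk6 (NM_009873, chromosome 5 from 3343893 to 3531008), the kinase that D-type cyclins activate, varied with dose and with cytokine. Its level was 55.2 and 53.3 CPM in unstimulated cells, 43.5 and 42.6 at 100 pM and 83.9 and 89.8 at 1 nM of mIL-21, and 76.9 and 80.05 at 100 pM and 175 and 186 at 1 nM of 21h10. It was therefore below unstimulated cells in one treated group and above them in the other three, with no overlap. At 100 pM it fell with mIL-21, at -0.33 (SE 0.0544, adjusted p = 2.47e-05), and rose with 21h10, at 0.53 (SE 0.0520, adjusted p = 3.56e-08). At 1 nM the log2 fold changes were 0.68 with mIL-21 and 1.74 with 21h10. Experiment 2 gave 32.1 and 35.2 CPM in unstimulated cells, 56.2 and 59.5 at 10 nM and 58.95 and 60.5 at 100 nM of mIL-21, and 58.5 and 70.2 at 10 nM and 92.4 and 90.3 at 100 nM of 21h10. All 4 groups rose, by 0.78, 0.94, 0.83 and 1.44, and 21h10 at 100 nM stood apart from the other three. The transcript counted here has 2470 bases, and the GENCODE transcript 11525.

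Cdk4, the other kinase of the D-type cyclins, fell throughout, also where Cdk6 rose, with log2 fold changes of -0.81 to -0.71 in experiment 1 and -0.69 to -0.57 in experiment 2, and passed in all 8 comparisons. With mIL-21 at 100 pM both kinases fell. The RPKM ratio of Cdk6 to Cdk4 was 0.0887 in unstimulated cells of experiment 1, 0.116 at 100 pM and 0.249 at 1 nM of mIL-21, and 0.220 and 0.516 at the same doses of 21h10. In experiment 2 it was 0.0836 in unstimulated cells, 0.219 and 0.220 with mIL-21, and 0.259 and 0.335 with 21h10. Cdk4 remained the more abundant transcript per length in every group.

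**Figure D2:**
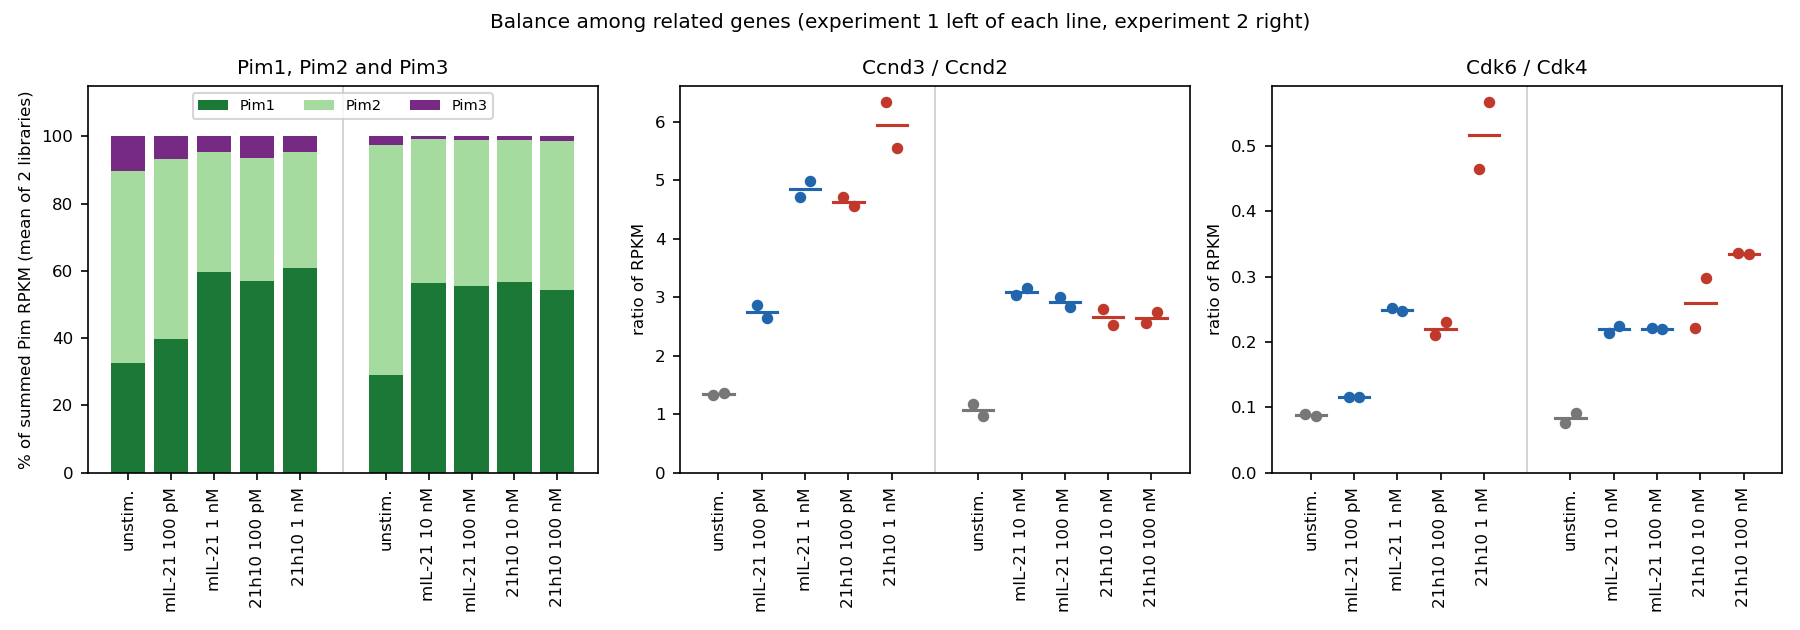
Shares of Pim1, Pim2 and Pim3 in their summed RPKM (stacked bars, mean of duplicates) and the RPKM ratios Ccnd3/Ccnd2 and Cdk6/Cdk4 (points are libraries), by group. Pim1 went from 32.6% to 60.9% with 21h10 at 1 nM, where Ccnd3/Ccnd2 reached 5.95 and Cdk6/Cdk4 reached 0.516.

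The inhibitor Cdkn1a (NM_001111099, chromosome 17 from 29090979 to 29099701), on the same chromosome as Pim1, rose with dose in experiment 1. It stood at 120.0 and 119 CPM in unstimulated cells, 158 and 155 at 100 pM and 331 and 355 at 1 nM of mIL-21, and 321 and 332 at 100 pM and 508 and 500.5 at 1 nM of 21h10. The groups did not overlap unstimulated cells, and 21h10 at 1 nM was the highest. The log2 fold changes were 0.39, 1.45, 1.52 and 2.08 (SE 0.0479, adjusted p = 8.75e-17 for the last). In experiment 2 levels were lower throughout, at 41.6 and 35.8 CPM in unstimulated cells, 36.8 and 46.8 at 10 nM and 38.9 and 43.7 at 100 nM of mIL-21, and 38.7 and 36.3 at 10 nM and 73.2 and 55.0 at 100 nM of 21h10. There, 21h10 at 100 nM alone was above unstimulated cells, at 0.73 (SE 0.138, adjusted p = 4.35e-04), and this call was lost in limma on log2(RPKM + 1) (0.40, adjusted p = 0.0632). For the other 3 groups the intervals were -0.18 to 0.41 at 10 nM and -0.20 to 0.39 at 100 nM for mIL-21, and -0.34 to 0.25 for 21h10 at 10 nM.

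Cdkn1b (NM_009875, chromosome 6 from 134920401 to 134925513) rose to much the same level at both doses in experiment 1. Its level was 57.3 and 54.95 CPM in unstimulated cells, 159 and 159.6 at 100 pM and 163 and 168 at 1 nM of mIL-21, and 174 and 183 at 100 pM and 156 and 167 at 1 nM of 21h10. The 8 treated libraries spanned 156 to 183 CPM, all far above unstimulated cells, without the dose order of Cdkn1a. The log2 fold changes were 1.503 to 1.67. In experiment 2 it was 119 and 141.2 CPM in unstimulated cells and 127 to 140.1 in treated libraries, with log2 fold changes of -0.012 to 0.073, none of which passed, and 95% confidence intervals that lay within -0.20 and 0.26. Unstimulated cells of experiment 2 thus stood between the unstimulated and the treated cells of experiment 1, a comparison across experiments that was not tested.

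Of 11 other p53 target genes, the group to which Cdkn1a belongs by its best-known regulator, 3, 2, 2 and 3 rose and 7, 7, 6 and 5 fell in experiment 1, with medians of -0.53, -0.77, -0.67 and -0.47. Gadd45a, a growth arrest gene, rose by 1.57 with 21h10 at 1 nM, while Aen, a nuclease, fell by 1.89 and Phlda3, an inhibitor of Akt signaling, by 1.59 on the log2 scale. Cdkn1a itself rose in all 4 groups of experiment 1. In experiment 2, 5, 5, 4 and 2 of the 10 targets tested rose and 4, 4, 4 and 3 fell, with medians of 0.07, 0.10, 0.06 and 0.03. Aen did not fall there, with a mean of 20.6 CPM in unstimulated cells and 22.8 to 31.0 in treated groups.

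**Figure D3:**
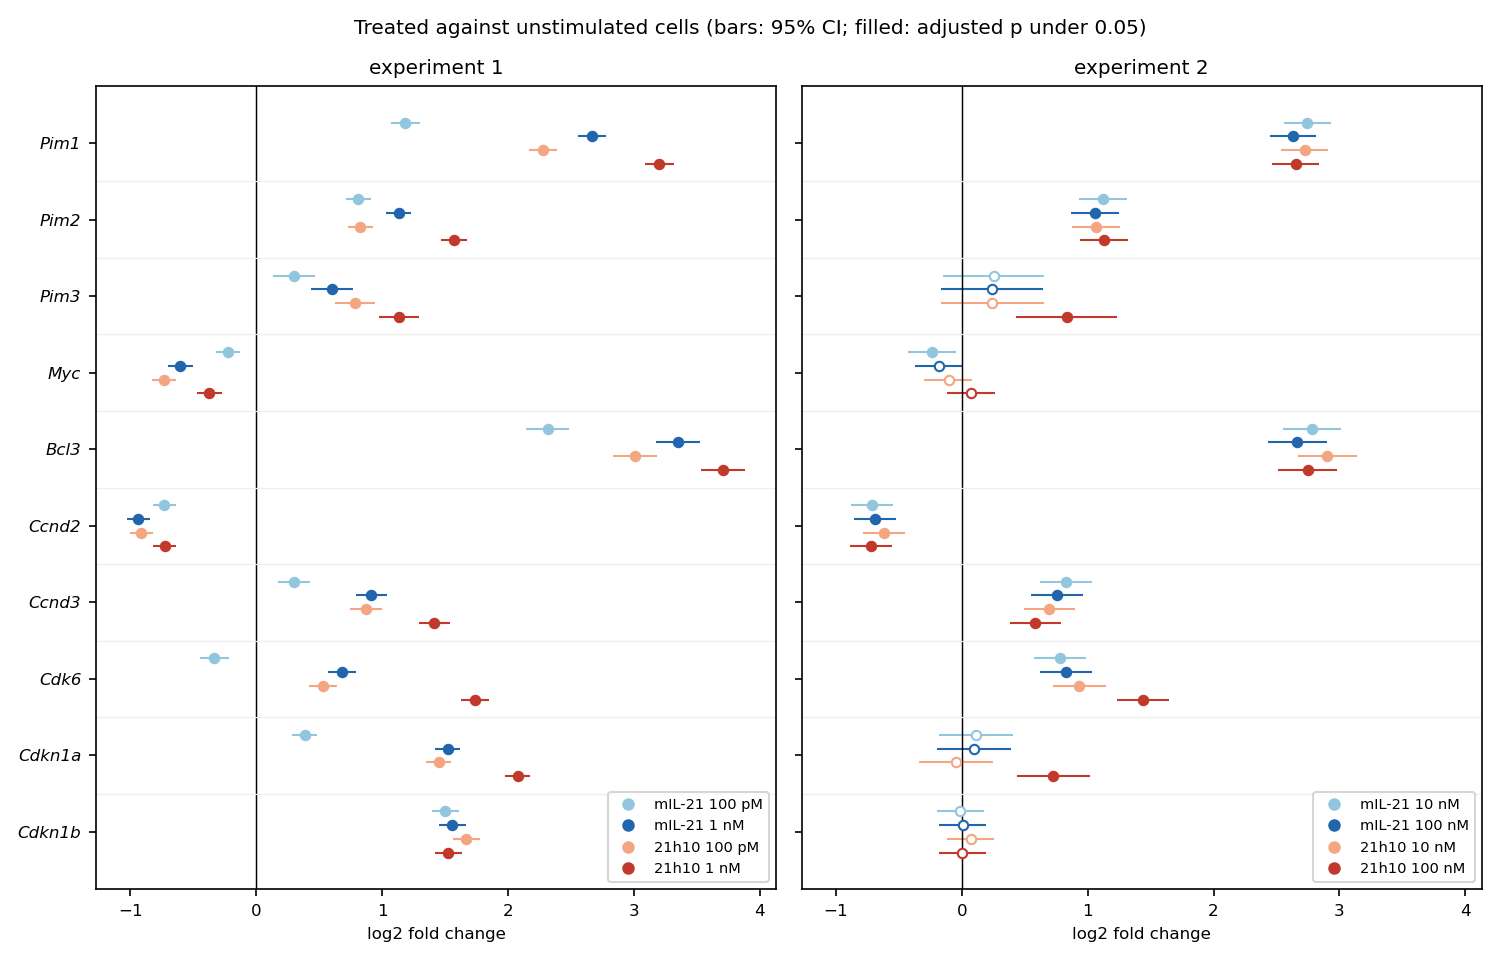
Log2 fold change of each of the 10 genes against the unstimulated cells of the same experiment, for both cytokines at 4 doses. The 95% confidence intervals were derived from the F statistic of edgeR's test. Bcl3 lies farthest to the right in every group, followed by Pim1 except with mIL-21 at 100 pM, where Cdkn1b lies beyond Pim1. Ccnd2 lies left of 0 in every group, Myc does in experiment 1 and Cdk6 does with mIL-21 at 100 pM, and Cdkn1b lies near 1.5 in experiment 1 and near 0 in experiment 2.

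Other genes of the G1 phase were mixed, and those of S phase and mitosis fell in experiment 1. Of 24 further G1 and G1/S genes, 7, 8, 9 and 10 rose and 11, 12, 12 and 11 fell in experiment 1, with medians between -0.14 and 0.04. Cdkn2d, an inhibitor of Cdk4 and Cdk6, went from 27.1 and 27.5 CPM in unstimulated cells to 118 and 112 at 100 pM and 202.6 and 195.3 at 1 nM of 21h10. This inhibitor rose by up to 2.87 and by 1.31 to 1.65 in experiment 2. Tfdp1, the dimer partner of E2F factors, went from 373 and 372 CPM to 117 and 113 with 21h10 at 1 nM (-1.69), and the cyclin Ccne2 from 105 and 101 to 32.5 and 33.45 (-1.64). In experiment 2, 6, 5, 8 and 4 of the 23 G1 and G1/S genes tested rose and 10, 10, 9 and 9 fell, with medians between -0.21 and 0.05. Ccne2 moved less there (a mean of 62.0 CPM in unstimulated cells and 47.3 to 64.3 in treated groups). In experiment 1 all 10 genes of the S phase and mitosis list fell with mIL-21 at either dose and with 21h10 at 100 pM. With 21h10 at 1 nM 9 fell, and the medians of the 4 groups were -0.94, -0.97, -1.0 and -0.99. Rrm2, a subunit of ribonucleotide reductase, fell by 1.71 and the replicative helicase subunit Mcm5 by 1.70 on the log2 scale with 21h10 at 1 nM. In experiment 2, 4, 4, 3 and 4 of these 10 fell, with medians of -0.15 to -0.05, and 1 rose with 21h10 at 100 nM, beside 46.2% to 50.8% of all genes that passed in these comparisons. Rrm2 changed little there (a mean of 321.9 CPM in unstimulated cells, 319.3 to 342.8 in treated groups), while Mcm5 was again lower (388.7 CPM, and 199.2 to 251.4).

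**Figure D4:**
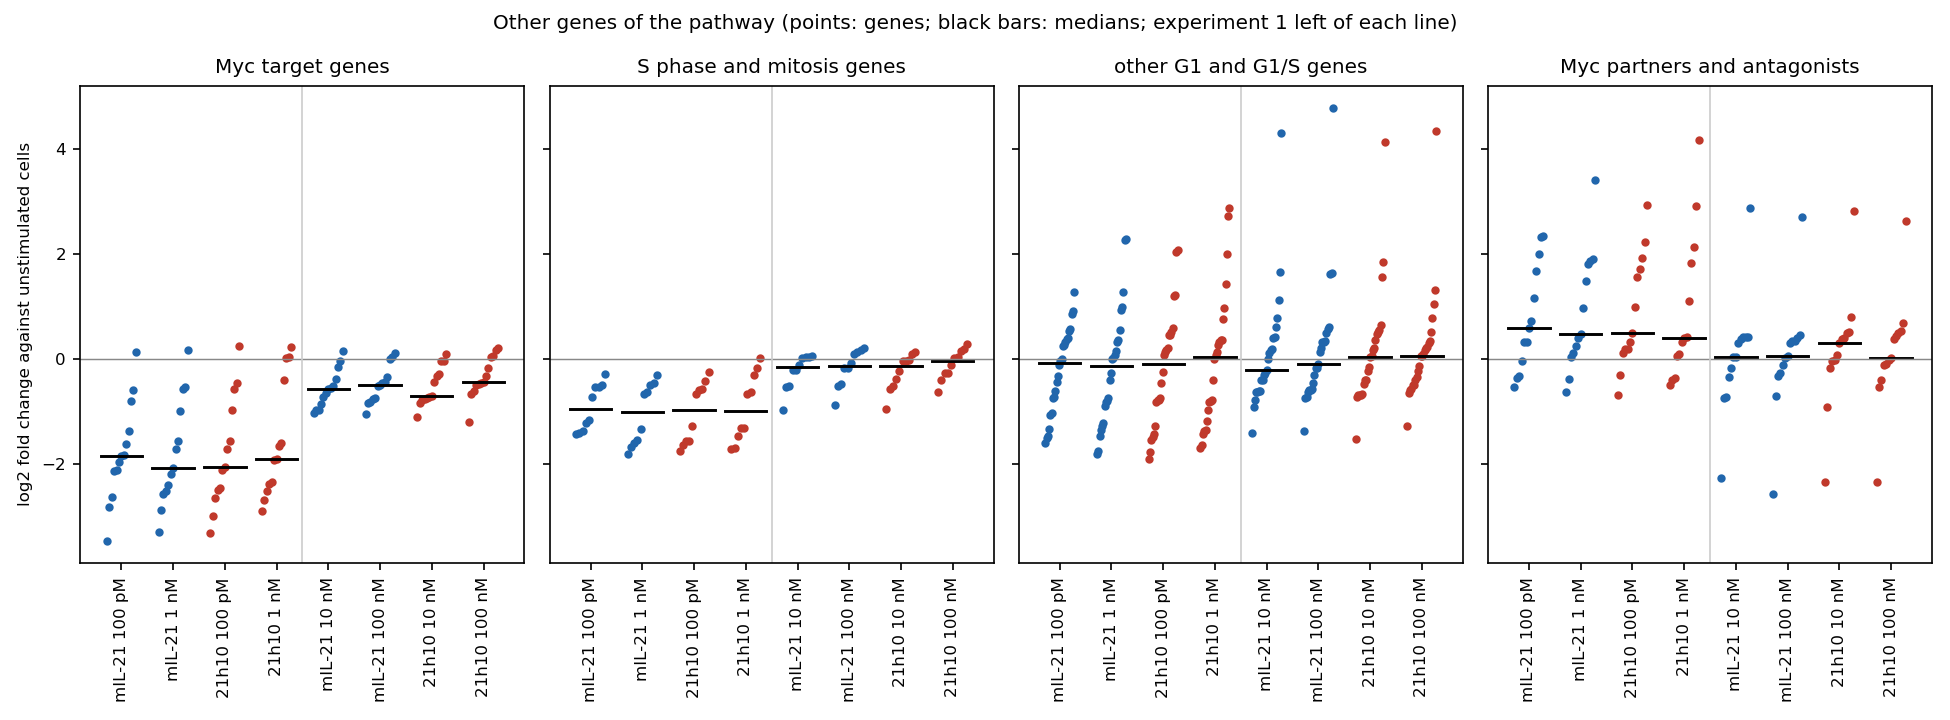
Log2 fold change against unstimulated cells of each gene of 4 lists, by treated group, with 1 point per gene. Myc targets have medians near -2 in experiment 1 and between -0.70 and -0.44 in experiment 2, and S phase and mitosis genes have medians of -1.0 to -0.94 and -0.15 to -0.05.

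The comparison of the designed with the native cytokine at one dose asks whether the mimic drives these genes further. At 100 pM, 9 of the 10 genes differed between 21h10 and mIL-21 (7 higher with 21h10, 2 lower), beside 38.6% of all genes tested, with a median log2 fold change of 0.53 against -0.01 over all genes. At 1 nM, 9 differed and all 9 were higher with 21h10, beside 37.7% of all genes (19.6% higher), with a median of 0.47 against -0.01. At 10 nM none of the 10 passed in edgeR, DESeq2 or limma, beside 0.00726% of all genes. Their log2 fold changes lay between -0.16 and 0.15, the smallest adjusted p was 0.653, and 1207 genes in all had an unadjusted p under 0.05. At 100 nM, 2 of the 10 passed, both higher with 21h10, beside 8.53% of all genes (4.02% higher).

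At 100 pM the differences were largest for Pim1, at 1.09 (SE 0.0511, adjusted p = 4.64e-11), and for Cdkn1a, at 1.06 (SE 0.0469, adjusted p = 2.01e-11). Next came Cdk6, at 0.87 (SE 0.0540, adjusted p = 1.56e-09). Bcl3 was higher by 0.70, Ccnd3 by 0.57 and Pim3 by 0.48, with both 21h10 libraries above both mIL-21 libraries for each. Lower with 21h10 were Myc, at -0.51 (SE 0.0468, adjusted p = 2.05e-07), and Ccnd2, at -0.18 (SE 0.0431, adjusted p = 0.00312). Pim2 alone did not pass, at 0.018 with an interval of -0.081 to 0.12. Cdkn1b passed by a small margin, at 0.17 (SE 0.0490, adjusted p = 0.0121), and no longer did without TMM scaling (0.083, adjusted p = 0.183), in limma on log2(RPKM + 1) (0.062, adjusted p = 0.393) or when any 1 of 3 libraries was left out (both of mIL-21 and replicate 2 of 21h10 at 100 pM, 0.13 to 0.17).

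At 1 nM the order changed. Cdk6 differed most, at 1.06 (SE 0.0519, adjusted p = 6.56e-11), a 2.08-fold difference, followed by Cdkn1a at 0.55, Pim1 at 0.53, Pim3 at 0.53, Ccnd3 at 0.50, Pim2 at 0.44 and Bcl3 at 0.36. Myc and Ccnd2, lower with 21h10 at 100 pM, were now higher with it, at 0.23 (SE 0.0470, adjusted p = 9.12e-04) and 0.21 (SE 0.0433, adjusted p = 0.001045). Cdkn1b did not pass, at -0.033 with an interval of -0.14 to 0.072. It was lower with 21h10 without TMM scaling (-0.13, adjusted p = 0.0432 from edgeR), where the median of all genes was -0.11.

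At 100 nM the genes that differed were Cdk6, at 0.61 (SE 0.0961, adjusted p = 7.58e-04), and Cdkn1a, at 0.63 (SE 0.138, adjusted p = 0.00936). For both, the libraries with 21h10 lay above those with mIL-21. The Cdkn1a call was lost without replicate 1 of 21h10 at 100 nM (0.40, adjusted p = 0.161), without replicate 1 of mIL-21 at 100 nM (0.55, adjusted p = 0.129) and in limma on log2(RPKM + 1) (0.51, adjusted p = 0.0931). Pim3 had a similar size, 0.59 with an interval of 0.19 to 0.99, and an adjusted p of 0.0647 from edgeR that missed the threshold, which it passed in DESeq2 (0.60, adjusted p = 0.0356), without the filter on low counts (0.57, adjusted p = 0.00896), with the compared groups alone (0.60, adjusted p = 0.00867) and when any 1 of 4 libraries of other groups was left out. Myc was at 0.26 (interval 0.067 to 0.45, adjusted p = 0.0893 from edgeR), and passed with the compared groups alone (0.27, adjusted p = 0.0312) and without either unstimulated library (0.25 each). The 6 other genes lay between -0.17 and 0.08.

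**Figure D5:**
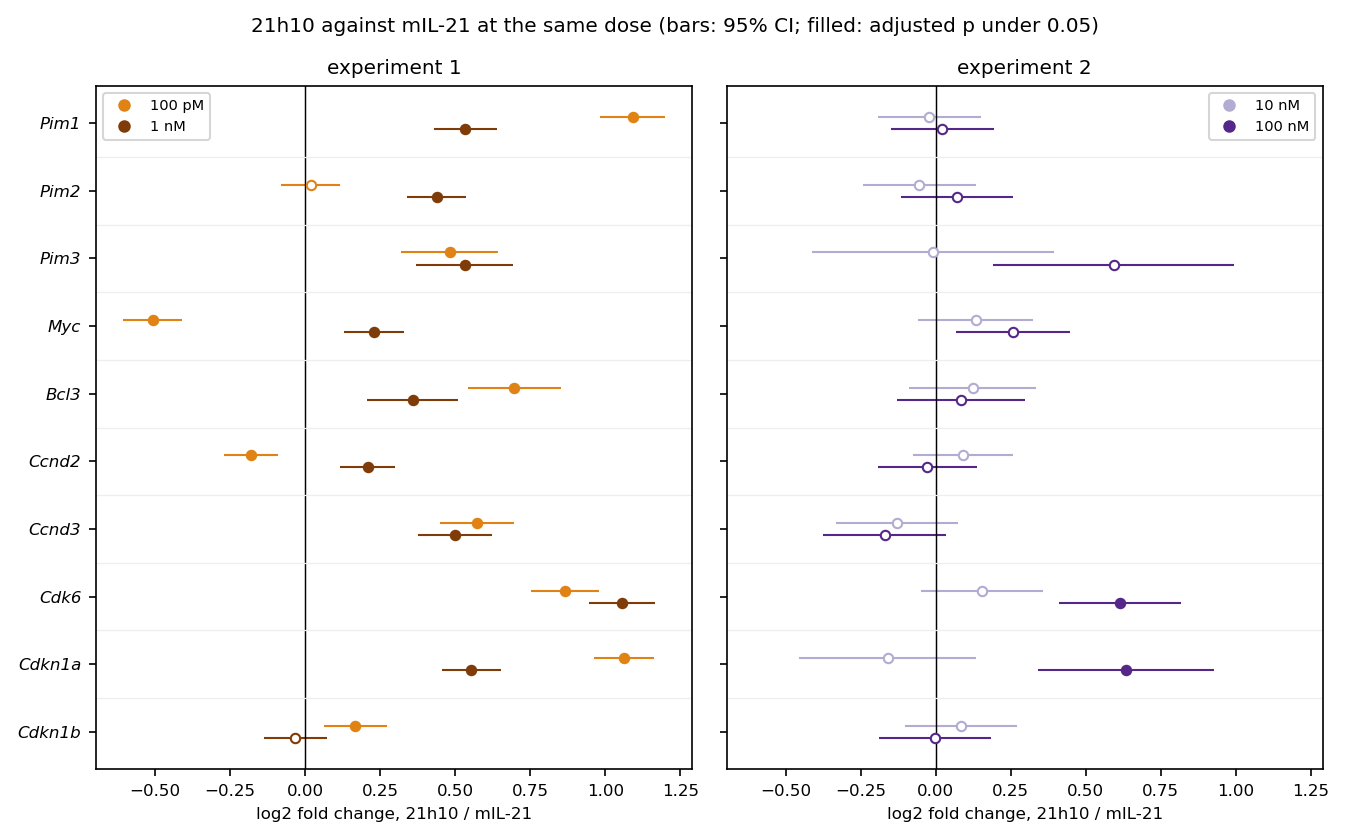
Difference between 21h10 and mIL-21 (log2 fold change, 21h10 over mIL-21) for each of the 10 genes at each of 4 doses. The 95% confidence intervals were derived from the F statistic of edgeR's test. Myc and Ccnd2 cross from below 0 at 100 pM to above 0 at 1 nM, all intervals at 10 nM include 0, and at 100 nM the intervals of Cdk6, Cdkn1a, Pim3 and Myc lie above 0, of which Cdk6 and Cdkn1a passed after adjustment.

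Whether the difference between the cytokines itself changed with dose was tested as an interaction. Between 100 pM and 1 nM, 6 of the 10 genes passed (3 with a higher and 3 with a lower difference at 1 nM), beside 18.4% of all genes tested. As 1 nM minus 100 pM, the change was positive for Myc, at 0.74 (SE 0.0663, adjusted p = 8.89e-07), for Pim2, at 0.42 (SE 0.0660, adjusted p = 2.47e-04), and for Ccnd2, at 0.39 (SE 0.0611, adjusted p = 2.52e-04), with Myc and Ccnd2 going from lower to higher with 21h10. The difference shrank for Pim1, at -0.56 (SE 0.0708, adjusted p = 3.22e-05), and for Cdkn1a, at -0.51 (SE 0.0654, adjusted p = 3.59e-05), the genes that differed most at 100 pM. Bcl3 passed at -0.34 (SE 0.102, adjusted p = 0.0279), a call lost in limma on log2(RPKM + 1) (-0.27, adjusted p = 0.125) and when any 1 of 5 libraries was left out, with the smallest value in the absence of replicate 2 of mIL-21 at 1 nM (-0.21, adjusted p = 0.135). Cdk6 did not pass, at 0.19 (adjusted p = 0.08975 from edgeR), but it did in DESeq2 (0.23, adjusted p = 0.0433), in limma on log2(RPKM + 1) (0.26, adjusted p = 0.0418) and without replicate 2 of mIL-21 or replicate 1 of 21h10 at 1 nM (0.24 each, adjusted p = 0.0445 and 0.0223). Cdkn1b did not pass either, at -0.20 (adjusted p = 0.0558 from edgeR), but it did without TMM scaling (-0.21, adjusted p = 0.04) and without replicate 2 of 21h10 at 1 nM (-0.25, adjusted p = 0.0101). Pim3 and Ccnd3 did not pass. Between 10 nM and 100 nM none of the 10 passed with edgeR and 1 with DESeq2, beside 0.922% of all genes, with values of -0.12 to 0.79, a smallest adjusted p of 0.0769 and 1096 genes in all at an unadjusted p under 0.05.

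Within mIL-21, the step from 100 pM to 1 nM changed 9 of the 10 genes (7 higher, 2 lower), beside 34.5% of all genes tested. Pim1 rose by 1.48, Cdkn1a by 1.14, Bcl3 by 1.04 and Cdk6 by 1.01, while Myc fell by 0.38 (adjusted p = 7.20e-06 from edgeR) and Ccnd2 by 0.20. Ccnd3 rose by 0.61 and Pim2 by 0.32. Pim3 rose by 0.30, a call lost in limma on log2(RPKM + 1) (0.17, adjusted p = 0.097) and without replicate 2 of either dose (0.21 and 0.23). Cdkn1b did not pass, at 0.055 (interval -0.049 to 0.16).

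Within 21h10, the same step changed all 10 genes (9 higher, 1 lower), beside 39.2% of all genes tested. The rise was largest for Cdk6, at 1.203 (SE 0.0514, adjusted p = 6.38e-12), followed by Pim1 at 0.92, Pim2 at 0.74, Bcl3 at 0.70, Cdkn1a at 0.63 and Ccnd3 at 0.54. Myc rose between these doses, at 0.36 (SE 0.0468, adjusted p = 8.56e-06), opposite to its fall with mIL-21, and so did Ccnd2, by 0.18 (0.12 and adjusted p = 0.0565 in limma on log2(RPKM + 1)). Pim3 rose by 0.35. Cdkn1b fell by 0.14 (adjusted p = 0.0264 from edgeR), which did not pass in DESeq2 (-0.12, adjusted p = 0.073) or without replicate 1 of 21h10 at 1 nM (-0.093, adjusted p = 0.148) or replicate 2 at 100 pM (-0.10, adjusted p = 0.243).

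In experiment 2 the step from 10 nM to 100 nM of mIL-21 changed none of the 10 genes in edgeR, DESeq2 or limma, beside 0.0% of all genes tested, with log2 fold changes of -0.12 to 0.05 and 361 genes in all at an unadjusted p under 0.05. The step of 21h10 raised 2 genes, Cdkn1a at 0.77 (SE 0.139, adjusted p = 0.00301) and Cdk6 at 0.51 (SE 0.0961, adjusted p = 0.00468), beside 5.33% of all genes (1.88% higher). Both calls were lost without replicate 1 of 21h10 at 100 nM (0.54 and 0.48). The Cdk6 call was also lost without replicate 1 at 10 nM (0.38). That of Cdkn1a was also lost without replicate 2 at 10 nM (0.72) and in limma on log2(RPKM + 1) (0.69, adjusted p = 0.0575). Pim3 was at 0.59 (adjusted p = 0.09255 from edgeR), and passed in DESeq2 (0.60, adjusted p = 0.0483), without the filter on low counts (0.58, adjusted p = 0.0115) and without either unstimulated library (0.59 each, adjusted p = 0.0344 and 0.0337). Cdk6, Cdkn1a and Pim3 were thus the genes with the largest values between 10 nM and 100 nM of 21h10.

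The study sets 21h10 at 100 pM beside mIL-21 at 1 nM. Between these, 3 of the 10 genes differed, all lower with 21h10, beside 0.737% of all genes tested (0.58% lower). They were Pim1, at -0.39 (SE 0.0495, adjusted p = 4.60e-04), Pim2, at -0.30 (SE 0.0466, adjusted p = 0.00229), and Bcl3, at -0.34 (SE 0.0714, adjusted p = 0.0289). Levels were 204.7 and 205.3 against 259.9 and 277 CPM for Pim1 and 154 and 152 against 182 and 195.1 CPM for Pim2, with no overlap. Without replicate 2 of 21h10 at 100 pM, Pim1 alone passed and Pim2 was at -0.29 (adjusted p = 0.0808). The Bcl3 call was also lost with the replicate number as a block (-0.34, adjusted p = 0.0535), in limma on log2(RPKM + 1) (-0.32, adjusted p = 0.172) and when any 1 of 5 libraries was left out (-0.38 to -0.21). The other 7 genes lay between -0.15 and 0.18.

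Levels of different genes can be compared per length only, as RPKM. In unstimulated cells of experiment 1 the order was Myc (109.3 RPKM, mean of duplicates), Ccnd3 (109.0), Ccnd2 (80.9), Cdkn1a (52.2), Pim2 (35.7), Pim1 (20.4), Cdkn1b (19.7), Cdk6 (18.6), Bcl3 (6.57) and Pim3 (6.47). Duplicates overlapped between Myc and Ccnd3, between Pim1 and Cdkn1b, and between Bcl3 and Pim3. With 21h10 at 1 nM, Ccnd3 (275 RPKM), Cdkn1a and Pim1 (177) led, followed by Pim2 (100.2), Bcl3 (80.9) and Myc (79.8), the last pair with overlapping duplicates, then Cdk6 (58.4), Cdkn1b (53.6), Ccnd2 (46.2) and Pim3 (13.5). Myc thus went from rank 1 to rank 6 of 10, and Ccnd2 from rank 3 to rank 9. In unstimulated cells of experiment 2, Myc (80.5 RPKM) was again the highest and Pim2 (73.1) the next, with overlapping duplicates, and in its 4 treated groups Pim1 led at 159 to 185 RPKM. Cdkn1a was at 16.6 RPKM in unstimulated cells there and Cdkn1b at 44.7, the reverse of their order in experiment 1, and the ratio of Cdkn1a to Cdkn1b was 2.65 in unstimulated cells of experiment 1 and 0.374 in those of experiment 2.

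The genes whose profile over the 10 groups was most like that of each member were ranked by Pearson's r of log2 CPM group means, centered within each experiment, among 5164 genes. For Pim1 they were Peli1 (r = 0.997), Socs3 (0.996), a feedback inhibitor of cytokine receptors, and Hlx (0.995). For Bcl3 they included Myadm (0.997) and Gpr18 (0.997), and for Pim2 they were Flot2 (0.991), Arid5a (0.988) and Chsy1 (0.985). Cdkn1b was closest to the phosphatase Ptpn22 (0.996), then Dlg4 and Ccni (0.993 each). Ccnd3 was closest to Osbpl9 (0.991), Ccnd2 to Ece2 (0.989), Cdk6 to Tnfrsf8 (0.989), Cdkn1a to Tnfrsf18 (0.983), which encodes the receptor GITR, and Pim3 to Nfil3 (0.961). Myc had the least close neighbors, led by Pkd1l3 (0.924). Among the 10 genes themselves, Bcl3 and Pim1 (r = 0.98) were most alike, then Pim2 with Pim1 and with Bcl3 (0.97 each). These correlations over 10 groups share libraries and 2 sets of controls and are given as a description.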

How the data were processed

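RNA was sequenced from mouse CD8+ T cells in 20 libraries of 10 groups, with groups, doses and duplicate numbers taken from the sample labels. According to the submitters' processing notes, the tools were TopHat2 2.0.11, Bowtie2 2.2.6, SAMtools 0.1.8, bedtools 2.25.0 and edgeR, with mm10 (GRCm38). The deposited counts are raw whole numbers of reads on the exons of each RefSeq transcript, 1 library per table, and the RPKM deposited beside them rests on those counts, the transcript length and the mapped reads. The use of strand is not given in the sources used here.

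Each of 23992 symbols was represented by the longest of its transcripts (31682 in all). Genes were kept by filterByExpr (least count 10, least total 15), scaled by TMM and tested with edgeR 4.0.16 (glmQLFit, glmQLFTest) in R 4.3.3, with 10 libraries and 5 groups of an experiment in 1 fit and no replicate block, and Benjamini-Hochberg adjustment. The SE of a log2 fold change was derived from edgeR's test, as its absolute size divided by the square root of the F statistic. Each 95% confidence interval is the log2 fold change plus and minus the SE times a t quantile. Scripts were tested on simulated data with 200 changed genes. The alternatives were DESeq2 1.42.0, no filter, limma 3.58.1 on log2(RPKM + 1) where 2 or more libraries reached an RPKM of 1, no TMM, the most-read transcript, the compared groups alone, a replicate block and each library left out. Gene positions and exonic bases are those of the GENCODE M21 transcript matched to each RefSeq transcript counted. Overlaps and near-identical copies came from GENCODE M21 and BLAST 2.17.0 (at least 95% identity over 100 bases).

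The members and lists were chosen with earlier results of these data known. Beyond the members, the text names from each list the 2 largest rises and falls among genes past the threshold without overlap between groups, in 21h10 at 1 nM against unstimulated cells and in 21h10 against mIL-21 at 100 pM and at 100 nM, and for each member the genes with the most similar profile. Cdk4, Bysl and list genes that did not pass were named after their values were seen. A few genes that the rule or a marker list holds are not reported here.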

Additional observations from a re-analysis of the deposited data

Results flagged for a closer look

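For 6 of the 10 genes, the difference between 21h10 and mIL-21 was not the same at 100 pM and 1 nM, by a test of that change itself (the interaction in edgeR, Benjamini-Hochberg adjusted). As log2 values, 1 nM minus 100 pM, it was 0.74 for Myc, 0.42 for Pim2, 0.39 for Ccnd2, -0.34 for Bcl3, -0.51 for Cdkn1a and -0.56 for Pim1. Myc and Ccnd2 are those whose difference changed sign between the doses, from lower with 21h10 at 100 pM to higher at 1 nM, and each of these 4 differences passed its own test. The value for Bcl3 did not pass when any 1 of 5 libraries was left out.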

How the results depend on the processing

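The 117 results of these genes that passed were recomputed under 1962 alternatives, of which 1914 kept direction and threshold, 48 no longer passed and 0 changed sign, and 103 results passed under every alternative. Of results that had missed the threshold, only those against unstimulated cells and some given their own value here were recomputed 1 by 1. Among these, 13 recomputed values passed under another setting of the analysis and others with a library left out, all of Cdk6, Cdkn1b, Myc or Pim3. The number of the 10 genes that passed for 21h10 against mIL-21 at 100 nM was 2, with 1 in limma on log2(RPKM + 1), 4 with the compared groups alone and 1 to 4 with a library left out. For 21h10 at 100 nM against 10 nM it was 2, with 1 in limma and 0 to 3 with a library left out. For the change in cytokine difference from 10 nM to 100 nM it was 0, with 1 in DESeq2, 1 without the filter and 0 to 1 with a library left out, and for 21h10 at 100 pM against mIL-21 at 1 nM it was 3, with 1 to 3 with a library left out. Of the results recomputed 1 by 1, the values that changed sign had all missed the threshold in the fit reported. Of them only Cdkn1b with 21h10 at 100 nM passed after the change, in limma. In limma these were Pim2 for 21h10 against mIL-21 at 100 pM (-0.084), Cdkn1b for the mIL-21 step to 1 nM (-0.060), and against unstimulated cells Cdkn1a with mIL-21 at 10 nM (-0.067) and 100 nM (-0.12), Pim3 with 21h10 at 10 nM (-0.009), Myc with 21h10 at 100 nM (-0.22) and Cdkn1b with 21h10 at 10 nM (-0.19), mIL-21 at 100 nM (-0.20) and 21h10 at 100 nM (-0.28, adjusted p = 0.0133). Without TMM the same comparisons gave -0.067 for Pim2, -0.012 for the Cdkn1b step, -0.003 for Cdkn1a with mIL-21 at 100 nM, -0.014 for Myc, and -0.023, -0.090 and -0.083 for Cdkn1b. Cdkn1b was at -0.009 with 21h10 at 100 nM without the filter and at 0.010 with mIL-21 at 10 nM in the compared groups alone. With a library left out, values against unstimulated cells spanned 0 for Cdkn1a with mIL-21 at 10 nM (-0.071 to 0.28), 21h10 at 10 nM (-0.15 to 0.065) and mIL-21 at 100 nM (-0.011 to 0.21), for Cdkn1b with mIL-21 at 10 nM (-0.13 to 0.12), 21h10 at 10 nM (-0.049 to 0.20), mIL-21 at 100 nM (-0.11 to 0.14) and 21h10 at 100 nM (-0.12 to 0.12), and for Pim3 with mIL-21 at 10 nM (-0.048 to 0.52), as did Cdkn1b for 21h10 against mIL-21 at 1 nM (-0.085 to 0.020). In limma, where RPKM was not rescaled by TMM, the median of all genes against unstimulated cells moved to as low as -0.29 (21h10 at 100 nM), and without TMM medians were -0.11 to 0.09. Over all genes, the count that passed for 21h10 against mIL-21 at 10 nM was 1, with 13 in DESeq2, 179 without the filter, 0 in limma and 4 with the replicate block. For 100 nM it was 1175 and 2026 with the compared groups alone. With a library left out, the counts over all genes that moved by over 1.5 times reached 372 to 1928 for 21h10 against mIL-21 at 100 nM and 0 to 8 at 10 nM, 254 to 1288 for the 21h10 step to 100 nM, 45 to 269 for the change in cytokine difference up to 100 nM, 31 to 199 for 21h10 at 100 pM against mIL-21 at 1 nM, and, without replicate 1 or 2 of mIL-21 at 100 pM, 3505 (of 5398) for the cytokines at 100 pM, 3009 (of 4825) for the mIL-21 step to 1 nM and 1650 (of 2570) for the change in cytokine difference up to 1 nM. For the mIL-21 step to 100 nM it was 0 and 14 without the filter, for that of 21h10 734, 1150 without the filter and 409 in limma, for the change in cytokine difference from 10 nM to 100 nM 127, 223 in DESeq2, 257 without the filter and 63 in limma, and for 21h10 at 100 pM against mIL-21 at 1 nM 103, 195 without the filter and 41 in limma. The deviations of same-numbered libraries had correlations (r) of -0.062 to 0.029 in experiment 1 and -0.17 to 0.23 in experiment 2. These values cannot show whether same-numbered libraries share a mouse or culture. With the replicate block the only call lost among these genes was that of Bcl3 for 21h10 at 100 pM against mIL-21 at 1 nM (-0.34, 2 of the 10 genes left). With duplicates, small differences in experiment 2, where the spread was wider, were not detectable.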

Other observations

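Nfkbiz, which encodes a nuclear IkappaB protein of the same family as Bcl3, stood apart from Bcl3 at the highest dose. In experiment 2 it was at 9.48 and 11.7 CPM in unstimulated cells, 70.75 and 75.1 at 10 nM and 64.9 and 69.1 at 100 nM of mIL-21, and 65.0 and 67.5 at 10 nM and 31.4 and 30.1 at 100 nM of 21h10. The last group lay below the other 3 treated groups without overlap, and 21h10 against mIL-21 at 100 nM gave a log2 fold change of -1.12 (SE 0.101, adjusted p = 3.43e-06) in edgeR (quasi-likelihood, Benjamini-Hochberg). Among the other lists, the genes that passed lower at this dose were E2f2 (-0.56), Mlxip (-0.39) and the p53 targets Trp53inp1 (-0.45) and Aen (-0.39). Those that passed higher were the nucleolar genes Ncl (0.40) and Npm1 (0.39), and the mitotic kinase gene Plk1 (0.27).

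At 100 pM, list genes also differed between the cytokines. Odc1 was higher with 21h10 by 0.66, at 353 and 346 against 223 and 219 CPM, with 687 and 677.5 in unstimulated cells and 695 and 710.1 with 21h10 at 1 nM. Odc1 was thus low with cytokine at 100 pM and back at the unstimulated level with 21h10 at 1 nM. Relb was higher with 21h10 by 0.83 and Mxd1 by 0.95, while Polr1b (-0.68) and Mxd4 (-0.62) were lower with 21h10 than with mIL-21. Mxd4 was above unstimulated cells with both, at 5.83 and 7.09 CPM in unstimulated cells, 34.05 and 29.45 with mIL-21 and 21.7 and 19.9 with 21h10. Cdkn2b, an inhibitor of Cdk4 and Cdk6, rose by 2.72 with 21h10 at 1 nM, from 0.162 and 0.291 to 1.37 and 1.44 CPM.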
